A study of Mus musculus with 16 samples.

Results

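The transcripts described here are those of 40 mouse genes that start autophagy, attach the ATG8 proteins to the autophagosome membrane, or tether cargo to it. They were chosen by name: 18 genes of initiation, 15 of conjugation, and 7 of receptors and fusion. The array probes matched 22916 genes through their identifiers, and all 40 genes were among the 14094 that could be tested. They were measured in primary podocytes, the epithelial cells of the glomerular filter, on 16 one-colour Agilent arrays in 4 groups of 4. Tsc2Δpodocyte mice carry Tsc2flox/flox alleles and Cre recombinase under a podocyte-specific promoter, so the gene is deleted in podocytes. Their Cre-negative Tsc2flox/flox littermates served as controls, so the groups also differ in the presence of Cre. TSC2 restrains the kinase complex mTORC1, and rapamycin inhibits that complex. The untreated Tsc2Δpodocyte and Tsc2flox/flox groups came from mice 4 weeks old, and the Tsc2Δpodocyte + Rapamycin and Tsc2flox/flox + Rapamycin groups from mice 5 weeks old, 1 week after treatment began. The study injected rapamycin into the mice, so treated cultures here are cultures grown from treated mice. All mice were male Jcl:ICR, and no vehicle is stated for the untreated groups. The cells grew out of isolated glomeruli on collagen, so each RNA sample is a culture and not a sorted cell type.

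Macroautophagy encloses cytoplasm in a membrane that closes into an autophagosome and fuses with the lysosome. The ULK1 kinase complex starts the process, a class III PI3-kinase complex marks the growing membrane with a lipid, and lipid transfer proteins and scramblases extend it. Enzymes that work like those of ubiquitin then attach the ATG8 proteins (LC3 and GABARAP) to that membrane, and receptors bind cargo on one side and ATG8 on the other. Podocytes divide little and are known for a high rate of autophagy, and mTORC1 inhibits autophagy by phosphorylating the ULK1 complex, which transcript levels do not show.

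The deleted gene and the markers were checked first. The Tsc2 signal, in log2 units above or below the array's 75th percentile, was between 1.93 and 2.31 on the untreated Tsc2Δpodocyte arrays and between 2.95 and 3.71 on the Tsc2flox/flox arrays. With rapamycin it was between 2.05 and 2.73 against 2.83 to 3.65, so the genotypes did not overlap on either slide. The position of the Tsc2 probe relative to the deletion is not known here. The podocyte markers Wt1 and Synpo were well above background on 16 arrays and Nphs1 on 15, at a low level. The summed level of 10 podocyte markers, in units of the array's 75th percentile, was 96.4 to 216 in Tsc2Δpodocyte against 75.5 to 116 in Tsc2flox/flox cultures without treatment. With rapamycin it was 98.1 to 220 against 94.4 to 128. Of the 10, 5 had a fitted difference above 0 without treatment, where 0 passed, and 6 with rapamycin, where Podxl rose (1.18, adjusted p = 0.0372 in limma). The summed level of 8 endothelial markers spread from 11.2 to 89.2 in untreated Tsc2Δpodocyte and from 7.86 to 110 in untreated Tsc2flox/flox cultures, against 5.03 to 9.09 and 5.9 to 13.1 in the treated ones. That of 9 macrophage and leukocyte markers was 8.79 to 15.7 against 3.83 to 11.1 without treatment, and 9.01 to 13.7 against 6.03 to 14.4 with it. All 9 had a fitted difference above 0 without treatment, where Cd68 rose (1.03, adjusted p = 0.019), and 5 of the 9 with rapamycin, where 0 rose. The 8 mesangial and smooth muscle markers summed to 704 to 965 against 625 to 775 without treatment, where all 8 had a fitted difference above 0 and Des, Itga8 and Cnn1 rose, and to 655 to 750 against 574 to 685 with rapamycin, where Des rose. The 6 parietal epithelial markers summed to 30 to 113 against 66 to 155 and to 78.8 to 279 against 88.9 to 330, and all 6 had a fitted difference below 0 in both comparisons, Pax8 and Cdh6 having fallen in each. Of 7 tubule markers, Lrp2, Cubn, Aqp1 and Aqp2 were well above background on 16 arrays, Slc12a1 on 2, and Slc34a1 and Umod on 0. Their sum was 0.884 to 1.71 against 1.59 to 2 without treatment and 0.911 to 1.05 against 1.53 to 2.53 with rapamycin, and Lrp2 fell in both comparisons. The part of the podocyte, mesangial, parietal and tubule marker levels in the results below was not tested. For endothelial cells and macrophages fits with their marker means are given with the counts. In a mixed culture fewer cells of a type and less RNA per cell cannot be told apart. Nothing says that the 4 cultures of a group derive from different mice; the p-values therefore rest on sample-to-sample spread, which could be technical.

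The promoters of 4 of the genes whose transcripts differed between the genotypes are shown, because transcription factors of the MITF/TFE family, which mTORC1 restrains and which drive genes of lysosomes and autophagy, bind the E-box CACGTG and longer forms of it. Of the 40 genes, 33 had a RefSeq promoter window of 300 bases (build GRCm38.p6, 250 bases before to 50 after the start of the gene), 5 of them more than 1. Capitals mark CACGTG, or TCACGTGA where the flanking bases complete it. Each sequence reads 5′ to 3′ on the strand of the gene, and the window ends within the first transcribed bases.
Atg3, chr16:45158579-45158878, + strand: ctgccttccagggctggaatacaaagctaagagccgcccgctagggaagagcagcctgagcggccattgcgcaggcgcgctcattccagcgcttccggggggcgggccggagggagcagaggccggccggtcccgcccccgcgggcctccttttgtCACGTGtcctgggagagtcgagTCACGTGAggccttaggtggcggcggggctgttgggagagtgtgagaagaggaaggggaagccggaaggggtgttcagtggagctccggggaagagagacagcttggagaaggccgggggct
Gabarapl1, chr6:129532942-129533241, + strand: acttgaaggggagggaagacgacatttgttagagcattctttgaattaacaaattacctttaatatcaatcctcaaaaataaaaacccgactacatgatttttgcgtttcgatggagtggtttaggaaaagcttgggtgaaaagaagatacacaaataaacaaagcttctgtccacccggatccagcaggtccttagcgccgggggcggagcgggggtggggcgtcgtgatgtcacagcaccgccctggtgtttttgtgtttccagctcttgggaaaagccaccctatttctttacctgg
Optn, chr2:5064068-5064367, - strand: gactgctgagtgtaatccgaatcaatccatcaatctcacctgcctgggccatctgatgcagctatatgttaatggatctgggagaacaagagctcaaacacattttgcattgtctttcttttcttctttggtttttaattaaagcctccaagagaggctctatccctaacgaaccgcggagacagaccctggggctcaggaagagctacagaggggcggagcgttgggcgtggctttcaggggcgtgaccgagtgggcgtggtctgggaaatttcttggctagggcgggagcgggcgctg
Atg101, chr15:101284051-101284350, + strand: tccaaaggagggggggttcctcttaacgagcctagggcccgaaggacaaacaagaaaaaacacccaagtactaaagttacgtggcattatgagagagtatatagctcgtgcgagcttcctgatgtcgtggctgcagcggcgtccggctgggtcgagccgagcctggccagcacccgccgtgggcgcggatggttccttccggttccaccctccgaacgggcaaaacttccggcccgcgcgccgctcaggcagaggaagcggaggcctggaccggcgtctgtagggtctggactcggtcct
The Atg3 window held CACGTG at positions -94 and -71 from the start, the second within TCACGTGA, and the other 3 windows held none. CACGTG reads the same on both strands and lies inside the longer forms. It was found in 5 of the 33 genes (15.2%), namely Atg14, Nrbf2, Atg3, Atg5 and Atg7, and in 8.09% of all 27025 genes with a window. TCACGTGA was found in Nrbf2 and Atg3 (6.06%), against 1.12% of all genes. The still longer form with G before and C after it was found in 0 of the 33, against 0.37% of all genes. A match describes the letters in this window and is not a binding site.

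Without treatment, the signal of 5 of the 40 genes rose in Tsc2Δpodocyte podocytes and that of 1 fell, at an adjusted p under 0.05, and 34 genes did not pass. The 5 were the ATG8 genes Gabarapl1 and Gabarap, the conjugation enzyme Atg3, and the receptors Optn and Bnip3l, and the gene that fell was Atg101 of the ULK1 complex. These shares, 12.5% higher and 2.5% lower, stood beside 10.3% and 9.2% of all genes tested, so the share that rose was near the background. The fitted differences of the 40 genes ran from -0.36 to 0.65 on the log2 scale, with a median size of 0.16 against 0.23 over all genes. With a fold of at least 1.5 as well, Optn alone was left, 1 of 40, where 10% of all genes passed. The 4 arrays of one genotype lay wholly above or below the other's for 10 of the 40 genes (25%) and for 27% of all genes. With rapamycin, Atg3, Atg4a, Atg4d and Optn rose in Tsc2Δpodocyte + Rapamycin podocytes and Atg101 and Atg16l1 fell, 10% and 5% of the 40, against 6.2% and 4.97% of all genes. There 10 of 40 genes had groups that did not overlap (25%, against 18.2% of all genes), and Optn again was the one past 1.5-fold, against 5.58% of all genes. The 2 genotype comparisons contrast different arrays. Both were taken from the same fit to all arrays and share its estimate of spread, so their p-values are not independent. Atg101, Atg3 and Optn passed in both and moved the same way, 3 genes of 6 (50%) on each side. Of all genes, the 1055 that passed in both were 38.4% and 67% of the 2 lists. These counts moved with single arrays. Without treatment, 2 genes passed without Tsc2Δpodocyte replicate 2, 3 without Tsc2flox/flox replicate 3 and 2 without Tsc2flox/flox replicate 4. With rapamycin, 0 passed without Tsc2Δpodocyte + Rapamycin replicate 1, 2 without replicate 4 of that group and 1 without Tsc2flox/flox + Rapamycin replicate 3. In the limma fit with the mean of the endothelial markers as a covariate, 3 passed without treatment and 5 with rapamycin, and with that of the macrophage markers 4 and 6. Without treatment Atg101, Gabarap, Gabarapl1 and Optn lost their calls with the macrophage covariate, so those 4 include genes outside the 6 named above.

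**Figure D1:**
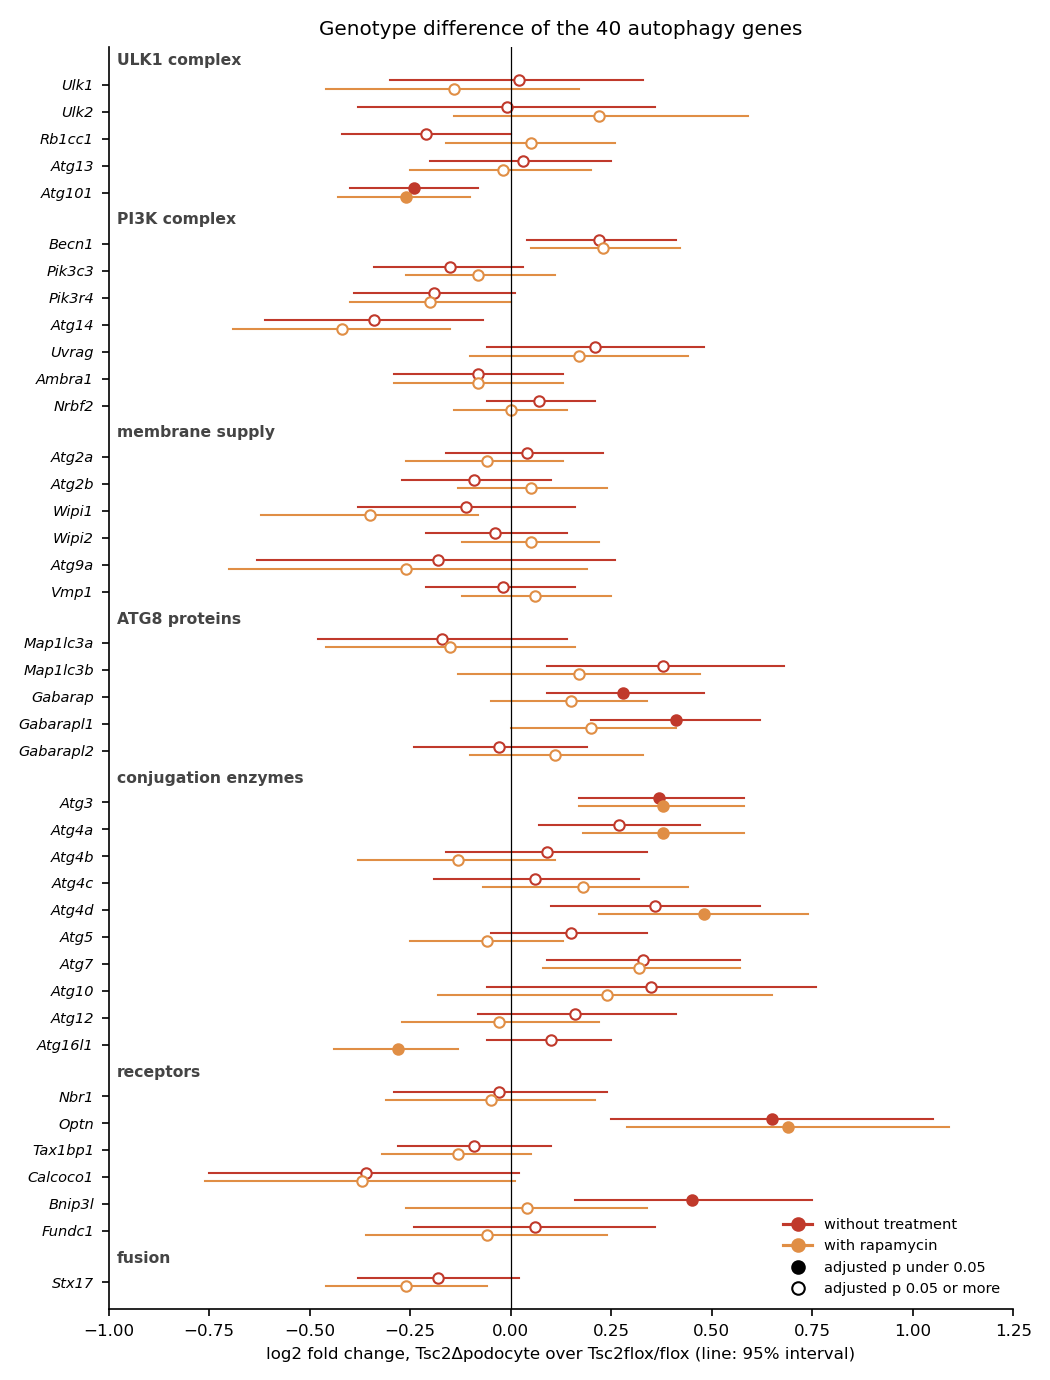
Fitted genotype difference of the 40 autophagy genes (x axis, log2 fold change of Tsc2Δpodocyte over Tsc2flox/flox) by role, without treatment (red) and with rapamycin (orange), with 95% intervals from limma over 4 arrays a group; filled points have an adjusted p under 0.05. Each point is of the gene's brightest probe. Most intervals cross 0, and Atg101, Atg3 and Optn are filled in both colours. The 10 conjugation enzymes all lie right of 0 without treatment and 6 of the 10 with rapamycin.

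Of the 18 initiation genes, 0 rose and 1 fell without treatment (10.3% and 9.2% of all genes), and the same counts were seen with rapamycin (6.2% and 4.97%). The 1 gene that fell is 5.56% of the 18, near the share of all genes with rapamycin and below it without. The gene was Atg101 both times, which encodes the HORMA-domain subunit that holds ATG13 in the ULK1 complex. Its signal was 3.1, 3.06, 2.89 and 3.02 on the untreated Tsc2Δpodocyte arrays and 3.33, 3.14, 3.28 and 3.27 on the Tsc2flox/flox arrays. All 4 values of the deleted group were below the lowest control value, and the difference was -0.24 (SE 0.08, adjusted p = 0.0406), a change of -15.3% in signal. With rapamycin the values were 3.14, 3.20, 3.34 and 3.25 against 3.52, 3.41, 3.50 and 3.56. The groups were again apart, by -0.26 (SE 0.08, adjusted p = 0.0398). The exact permutation test gave p = 0.0286 for each comparison, the smallest value that 4 arrays against 4 allow. Groups that do not overlap always give this value, here and below, so it adds nothing to their being apart. Of all genes, 27% without treatment and 18.2% with rapamycin had such groups. The call was close to the threshold: it was lost in 17 of 29 alternative settings without treatment and in 16 of 29 with rapamycin, the difference ranging from -0.32 to -0.17 and from -0.33 to -0.07, with an adjusted p of up to 0.184 and 0.683. The value of -0.07 came after normexp background correction.

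Rb1cc1 encodes FIP200, the scaffold of the ULK1 complex, and has 6 probes that did not give the same call. Its brightest probe was at 2.03, 2.12, 2.20 and 1.96 on the Tsc2Δpodocyte arrays and at 2.16, 2.33, 2.22 and 2.42 on the Tsc2flox/flox arrays. The groups overlapped and the difference of -0.21 did not pass (SE 0.10, adjusted p = 0.156, 95% interval -0.42 to 0.00). Probe A_52_P542172 gave -0.09, 0.04, 0.03 and -0.19 against 0.36, 0.42, 0.45 and 0.53. These groups were apart, and the difference of -0.49 passed (adjusted p = 0.00208). Probe A_55_P2717792 passed as well, at -0.41 (adjusted p = 0.0229). The other 3 probes had differences of -0.15 to -0.26 that did not pass, so all 6 had a fitted value below 0 without treatment. With rapamycin A_52_P542172 passed alone, at -0.41 (adjusted p = 0.0115), from 0.13, 0.31, 0.33 and 0.02 against 0.56, 0.66, 0.71 and 0.51. The brightest probe was then at 0.05 (adjusted p = 0.798) and the others between -0.08 and 0.07. With the mean of the 6 probes as the value of the gene, Rb1cc1 passed without treatment, with an adjusted p of 0.0392. Where in the transcript each probe lies was not determined here.

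**Figure D2:**
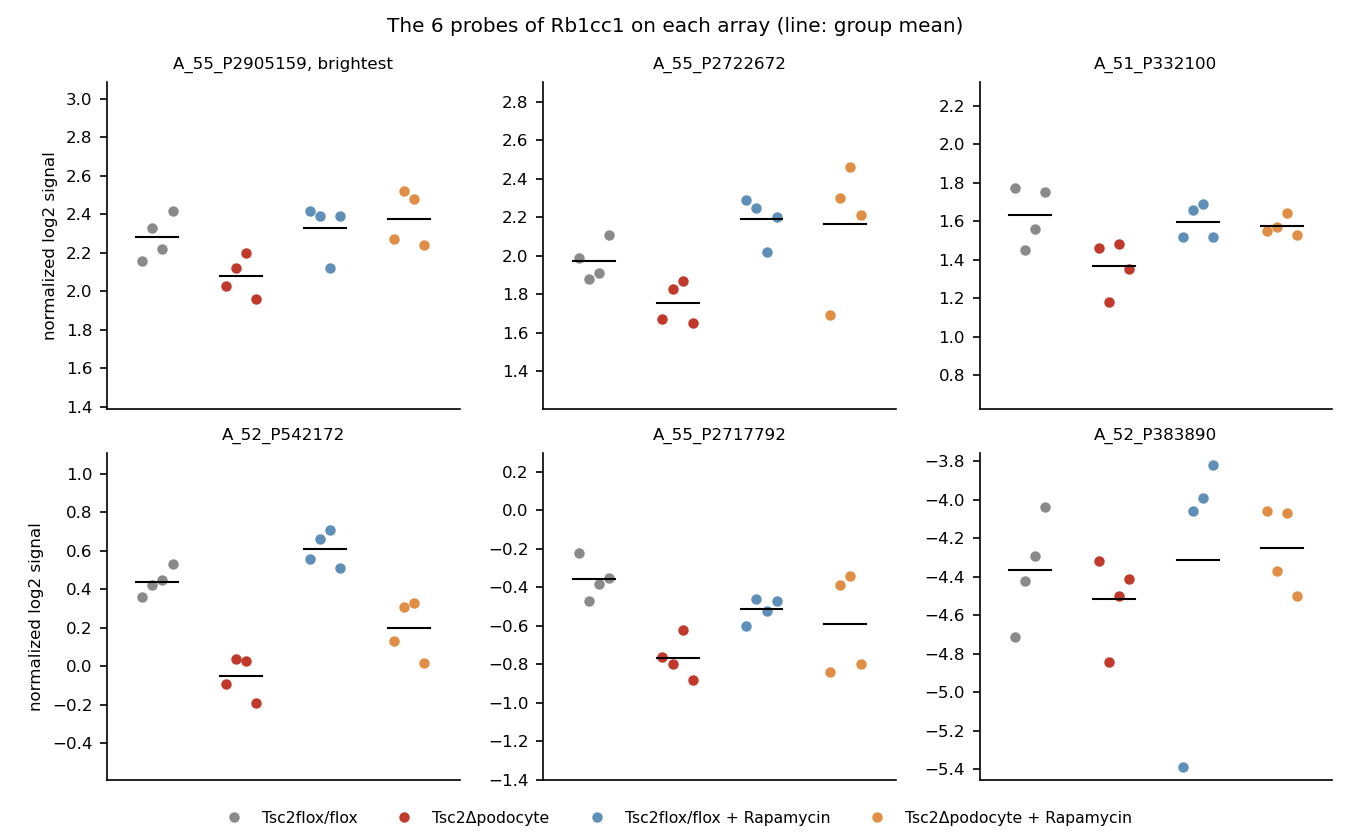
Normalized log2 signal (y axis) of each of the 6 probes of Rb1cc1 on the 16 arrays, by group, with the group means as lines. Only for A_52_P542172 do the genotypes stay apart both without and with rapamycin (-0.49 and -0.41).

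The remaining genes of the ULK1 complex had no difference that passed. Ulk1, the kinase itself, was at 3.65, 4.15, 3.34 and 3.40 on the Tsc2Δpodocyte arrays and at 3.6, 3.64, 3.51 and 3.73 on the Tsc2flox/flox arrays. Replicate 2 of the deleted group was above all others and 2 of its replicates were below all controls, with a difference of 0.02 (95% interval -0.30 to 0.33) that turned to -0.16 without that replicate. Ulk2, its close relative, and Atg13, which the kinase phosphorylates, were at -0.01 and 0.03. Of the 7 genes of the PI3-kinase complex and its regulators, 0 passed in either genotype comparison. Atg14, which directs the kinase to sites of autophagosome formation, had the lowest fitted value, with 0.19, 0.33, -0.01 and 0.10 on the Tsc2Δpodocyte arrays against 0.68, 0.36, 0.38 and 0.55. The groups did not overlap, and the difference was -0.34 (adjusted p = 0.0795) without treatment and -0.42 (adjusted p = 0.0508) with rapamycin, where they did. Becn1, the scaffold of that complex, lay the other way, at 0.22 (adjusted p = 0.0913) and 0.23 (adjusted p = 0.099), and its genotypes did not overlap on either slide. Pik3c3, the lipid kinase, and Pik3r4, its regulatory subunit, were at -0.15 and -0.19 without treatment. Uvrag, which takes the place of ATG14 in a second form of the complex, was at 0.21. The 6 genes of membrane supply were between -0.18 (Atg9a, a scramblase) and 0.04 (Atg2a, a lipid transfer protein) without treatment, and between -0.35 (Wipi1) and 0.06 (Vmp1) with rapamycin.

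Of the 15 conjugation genes, 3 rose and 0 fell without treatment (10.3% and 9.2% of all genes), and 3 rose and 1 fell with rapamycin (6.2% and 4.97%). Among the 5 ATG8 genes, Gabarapl1 had values of 6.09, 6.34, 6.09 and 6.22 in Tsc2Δpodocyte cultures and of 5.85, 5.70, 5.82 and 5.73 in Tsc2flox/flox cultures. The groups were apart, and it rose by 0.41 (SE 0.10, adjusted p = 0.0108, exact permutation p = 0.0286), 32.9% more signal. This call was lost in 1 of 29 alternative settings, with the macrophage marker mean as a covariate, where the difference was 0.37 (adjusted p = 0.0584). Its second probe was at 0.38 (adjusted p = 0.11). With rapamycin the 2 groups overlapped, 5.93, 5.82, 6.13 and 5.75 against 5.52, 5.79, 5.75 and 5.76, and the difference was 0.20 (95% interval 0.00 to 0.41). Gabarap, the founding member of its branch, had 5.95, 6.07, 5.73 and 5.90 against 5.79, 5.48, 5.67 and 5.59. These groups overlapped in 1 control value, and the rise of 0.28 (SE 0.09, adjusted p = 0.045, exact permutation p = 0.0571) was lost in 20 of 29 alternative settings. With rapamycin it gave 5.77, 5.83, 6 and 5.74 against 5.68, 5.63, 5.72 and 5.73, groups that did not overlap, and the difference of 0.15 did not pass (adjusted p = 0.332).

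Map1lc3b encodes LC3B, whose lipid-bound form is the usual protein marker of autophagosomes. It gave 6.14, 6.53, 6.02 and 6.06 on the Tsc2Δpodocyte arrays and 5.93, 5.58, 5.85 and 5.86 on the Tsc2flox/flox arrays. The groups did not overlap, but the difference of 0.38 (SE 0.14, adjusted p = 0.07, 95% interval 0.09 to 0.68) did not pass. Its second probe was at 0.31 (adjusted p = 0.171). With rapamycin the values were 5.79, 5.81, 6.31 and 5.87 against 5.84, 5.59, 5.88 and 5.79, overlapping, with a difference of 0.17. The second probe of Map1lc3b was then at 0.38 (adjusted p = 0.123), also not passing. The smaller difference with rapamycin was therefore seen with the brightest probe only. Map1lc3a, a close relative, and Gabarapl2 were at -0.17 and -0.03 without treatment, neither passing.

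By their brightest probes, the 10 conjugation enzymes all had a fitted difference above 0 without treatment, between 0.06 (Atg4c) and 0.37 (Atg3). Of all genes, 48.7% did. With rapamycin 6 of the 10 did (60%), against 51.1% of all genes, and 3 rose and 1 fell. The second probe of Atg4b was at -0.04 without treatment, and those of Atg7 and Atg10 were at 0.29 and 0.3. The autophagy genes also varied together among replicates, as described below, so these 10 are not 10 separate observations. Without treatment, of the 10, 1 passed. Atg3, the E2-like enzyme that hands ATG8 proteins to phosphatidylethanolamine, gave 3.50, 3.78, 3.64 and 3.64 on the Tsc2Δpodocyte arrays and 3.24, 3.21, 3.27 and 3.35 on the Tsc2flox/flox arrays. All values of the deleted group were above the controls, and it rose by 0.37 (SE 0.10, adjusted p = 0.0164), 29.6% more signal. With rapamycin it gave 3.71, 3.56, 3.84 and 3.73 against 3.21, 3.16, 3.51 and 3.46. The groups were apart again, and the rise was 0.38 (SE 0.10, adjusted p = 0.0244). The exact permutation test gave p = 0.0286 in both. The call was lost in 3 of 29 alternative settings without treatment, among them without Tsc2Δpodocyte replicate 2, with differences of 0.33 to 0.42. With rapamycin it was lost in 9 of 29, among them the fit of that slide alone, with differences of 0.22 to 0.44 and an adjusted p of up to 0.2. Atg7, the E1-like enzyme that activates ATG8 and ATG12, lay at 0.33 and 0.32 and did not pass (adjusted p = 0.0585 and 0.0824). Atg5, which is joined to ATG12 and like Atg3 and Atg7 has CACGTG in its window, lay at 0.15 and -0.06. Outside conjugation, Atg14 and Nrbf2 also have CACGTG in their windows. Atg14 lay at -0.34 and -0.42 and Nrbf2 at 0.07 and 0.00, and neither passed. Whether the motif goes with the transcript differences was not tested.

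Of the 4 ATG4 proteases, which trim ATG8 proteins before and after conjugation, Atg4a and Atg4d passed with rapamycin. Atg4a gave 0.86, 0.44, 0.85 and 0.71 on the Tsc2Δpodocyte + Rapamycin arrays and 0.37, 0.36, 0.28 and 0.35 on the Tsc2flox/flox + Rapamycin arrays. The groups were apart, and it rose by 0.38 (SE 0.09, adjusted p = 0.0201). Without treatment its values were 0.59, 0.60, 0.65 and 0.50 against 0.17, 0.33, 0.40 and 0.36, also apart, but the difference of 0.27 did not pass (adjusted p = 0.0563). Atg4d gave 2.61, 2.26, 2.40 and 2.55 against 2.08, 2.24, 1.84 and 1.74 with rapamycin, apart, and rose by 0.48 (SE 0.12, adjusted p = 0.0239), 39.3% more signal. Without treatment it gave 2.06, 2.26, 2.28 and 2.21 against 1.68, 2.07, 1.77 and 1.87, which overlapped, at 0.36 (adjusted p = 0.0554). Atg4b and Atg4c did not pass in either comparison.

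Atg16l1, which positions the ATG12-ATG5 conjugate on the membrane, fell in the cultures of rapamycin-treated Tsc2Δpodocyte mice against those of treated controls. It gave 1.93, 1.84, 2.02 and 1.78 on the Tsc2Δpodocyte + Rapamycin arrays and 2.15, 2.23, 2.18 and 2.14 on the Tsc2flox/flox + Rapamycin arrays. All treated deleted cultures were below their controls, and the difference was -0.28 (SE 0.07, adjusted p = 0.0244). Without treatment it gave 2.20, 2.21, 2.14 and 2.05 against 2.14, 2.04, 2.00 and 2.04, overlapping, at 0.10 (adjusted p = 0.379). The change between these comparisons, -0.38 (SE 0.10), had an unadjusted p of 0.00224 and an adjusted p of 0.611, so it did not pass. The calls of Atg4a, Atg4d and Atg16l1 were each lost when only the 8 arrays of that slide were fitted, and over all settings their differences ranged from 0.16 to 0.47, from 0.40 to 0.57 and from -0.33 to -0.06, with adjusted p values up to 0.302, 0.111 and 0.633.

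**Figure D3:**
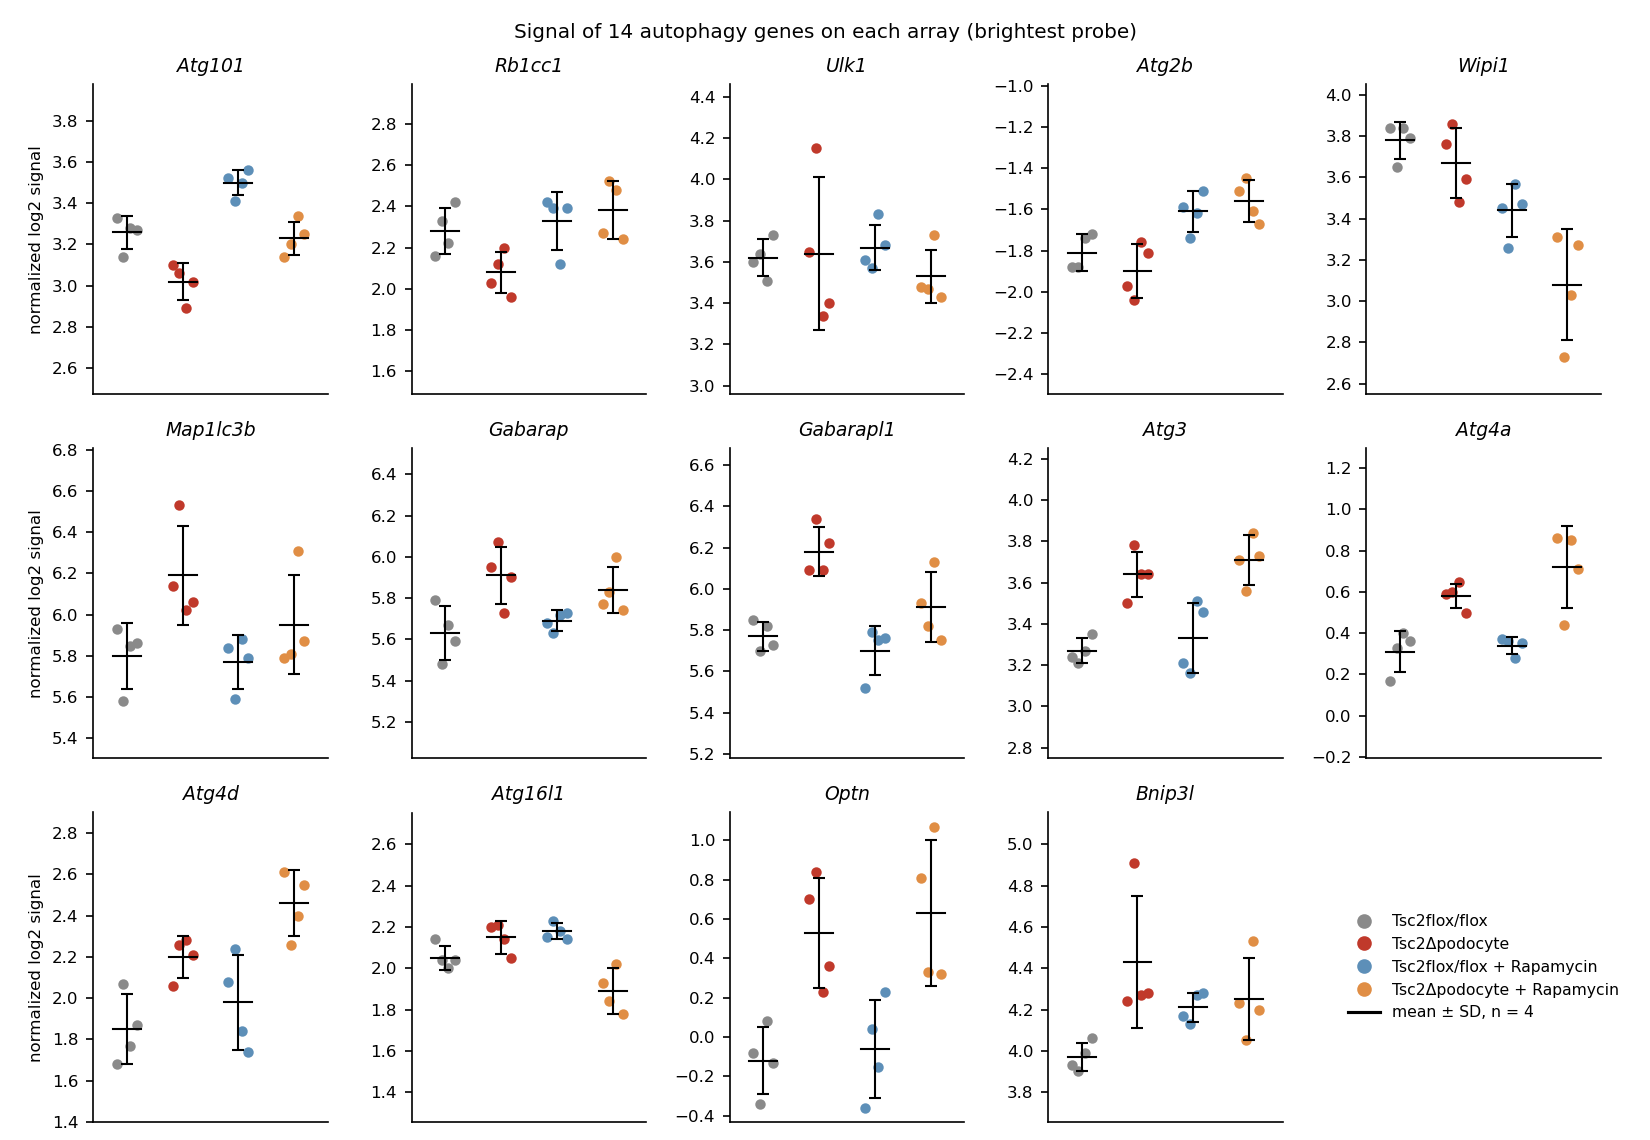
Normalized log2 signal (y axis, scaled per gene) of 14 autophagy genes on each of the 16 arrays, 4 per group, with mean ± SD. Tsc2Δpodocyte points lie above the controls of the same slide for Atg3 and Optn and below them for Atg101 on both slides.

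Of the 7 genes of receptors and fusion, 2 rose without treatment (10.3% of all genes) and 1 with rapamycin (6.2%), and 0 fell in either (9.2% and 4.97%). Optn encodes optineurin, a receptor for ubiquitin-tagged cargo such as damaged mitochondria. It gave 0.70, 0.84, 0.23 and 0.36 on the Tsc2Δpodocyte arrays and -0.08, -0.34, 0.08 and -0.13 on the Tsc2flox/flox arrays. The groups were apart, and it rose by 0.65 (SE 0.19, adjusted p = 0.0284), 56.9% more signal. With rapamycin it gave 0.81, 0.33, 1.07 and 0.32 against -0.36, 0.04, -0.15 and 0.23, apart again, and rose by 0.69 (SE 0.19, adjusted p = 0.0324). Its second probe passed both times, at 0.77 (adjusted p = 0.00474) and 0.90 (adjusted p = 0.00522). The call of the brightest probe was lost in 8 of 29 alternative settings in each comparison, with differences of 0.52 to 0.76 and 0.55 to 0.80 and adjusted p values up to 0.0873 and 0.137. Bnip3l encodes NIX, a mitophagy receptor, and gave 4.24, 4.91, 4.27 and 4.28 against 3.93, 3.90, 3.99 and 4.06 without treatment. Replicate 2 of the deleted group stood above the other 3, all of which were above the controls, and the rise was 0.45 (SE 0.14, adjusted p = 0.0355), with the second probe at 0.44 (adjusted p = 0.0491). It was lost in 13 of 29 alternative settings, with differences of 0.29 to 0.57. With rapamycin the groups overlapped, 4.23, 4.05, 4.53 and 4.20 against 4.17, 4.13, 4.27 and 4.28, at 0.04 (95% interval -0.26 to 0.34). The second probe of Bnip3l was then at 0.26 (adjusted p = 0.267). The ubiquitin-binding receptors Nbr1 and Tax1bp1 were at -0.03 and -0.09 without treatment, and Fundc1, a receptor of the outer mitochondrial membrane, at 0.06. Calcoco1 was at -0.36 and -0.37 in the 2 comparisons, with overlapping groups (adjusted p = 0.173 and 0.201). Stx17, the SNARE that joins autophagosome and lysosome, was at -0.18 (adjusted p = 0.195) without treatment and -0.26 (adjusted p = 0.0914) with rapamycin, where its groups were apart. Its second probe was at -0.05 (adjusted p = 0.669) and 0.00 (adjusted p = 0.984), with overlapping groups both times.

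The difference between these 2 genotype effects was tested in 1 fit, in which an effect common to a slide cancels. In limma, 0 of the 40 genes passed, 0% of all genes passed in either direction (0 of 14094), and the ordinary linear model passed 0 of the 40 too. At an unadjusted p under 0.05 there was 1 of the 40, Atg16l1, and 1042 of all genes. The genes that passed in 1 genotype comparison are therefore not shown to differ from the other. For Gabarapl1 the change was -0.21 (95% interval -0.50 to 0.09), for Bnip3l -0.41 (-0.83 to 0.00), for Rb1cc1 0.26 (-0.04 to 0.55), and for Map1lc3b -0.21 (-0.63 to 0.21). These values are of the brightest probes. The second probes gave -0.24 for Gabarapl1, -0.17 for Bnip3l and 0.07 for Map1lc3b, and the probes of Rb1cc1 gave 0.08 to 0.34. None of them passed. Atg3 and Atg101 had changes near 0, 0.00 (-0.29 to 0.30) and -0.02 (-0.25 to 0.20).

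Treated were next compared with untreated cultures of each genotype. Here slide, age and treatment cannot be told apart, and these comparisons share arrays with the 2 above. In Tsc2Δpodocyte cultures 1 of the 40 genes rose and 1 fell, 2.5% each, against 1.97% and 1.53% of all genes. Wipi1, a protein that binds the lipid made by the PI3-kinase complex, was at 3.31, 2.73, 3.03 and 3.27 with rapamycin and at 3.76, 3.86, 3.48 and 3.59 without. The groups were apart, and it fell by 0.59 on the log2 scale (SE 0.13, adjusted p = 0.0283), a change of -33.5% in signal and past the 1.5-fold threshold, as for 1.57% of all genes. Its second probe fell by 0.55 on the same scale (adjusted p = 0.0217). Atg2b, which carries lipid to the growing membrane, was at -1.51, -1.45, -1.61 and -1.67 with rapamycin and at -1.97, -2.04, -1.76 and -1.81 without. It rose by 0.33 (SE 0.09, adjusted p = 0.0495), just under the threshold, and the call was lost in 24 of 29 alternative settings; its second tested probe was at -0.14 (adjusted p = 0.67). Neither gene passed without Tsc2Δpodocyte replicate 1, 2 or 4 or without Tsc2Δpodocyte + Rapamycin replicate 2 or 3, nor with the endothelial marker mean as a covariate. All 8 endothelial markers had a fitted difference below 0 in this comparison, with a median of -2.08, though 0 of the 8 passed in limma and 6 had an unadjusted p under 0.05.

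In Tsc2flox/flox cultures 0 of the 40 passed in limma, and 0.106% and 0.0568% of all genes passed, higher and lower. An unadjusted p under 0.05 in limma was found for 7 of the 40 and for 2236 of all 14094 genes, which are similar shares. All 8 endothelial markers had a fitted difference below 0 here too, with a median of -2.22. None of the 8 passed, and 7 had an unadjusted p under 0.05 in limma. Of the 9 macrophage and leukocyte markers, 8 lay above 0 here, against 4 in Tsc2Δpodocyte cultures, and 0 passed in either. Wipi1 was at 3.45, 3.26, 3.57 and 3.47 with rapamycin and at 3.84, 3.65, 3.84 and 3.79 without, apart, with a difference of -0.34 (adjusted p = 0.219). Atg101 was higher on each treated array than on each untreated one in both genotypes, by 0.21 (adjusted p = 0.117) in Tsc2Δpodocyte and 0.24 (adjusted p = 0.159) in Tsc2flox/flox cultures. Rb1cc1 was at 0.30 (adjusted p = 0.0936) in Tsc2Δpodocyte cultures, where the groups did not overlap, and at 0.05 (adjusted p = 0.852) in Tsc2flox/flox cultures, where they did. Gabarapl1 was at -0.28 (adjusted p = 0.119) and -0.07 (adjusted p = 0.759), and Atg7 at 0.26 in both (adjusted p = 0.195 and 0.275).

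**Figure D4:**
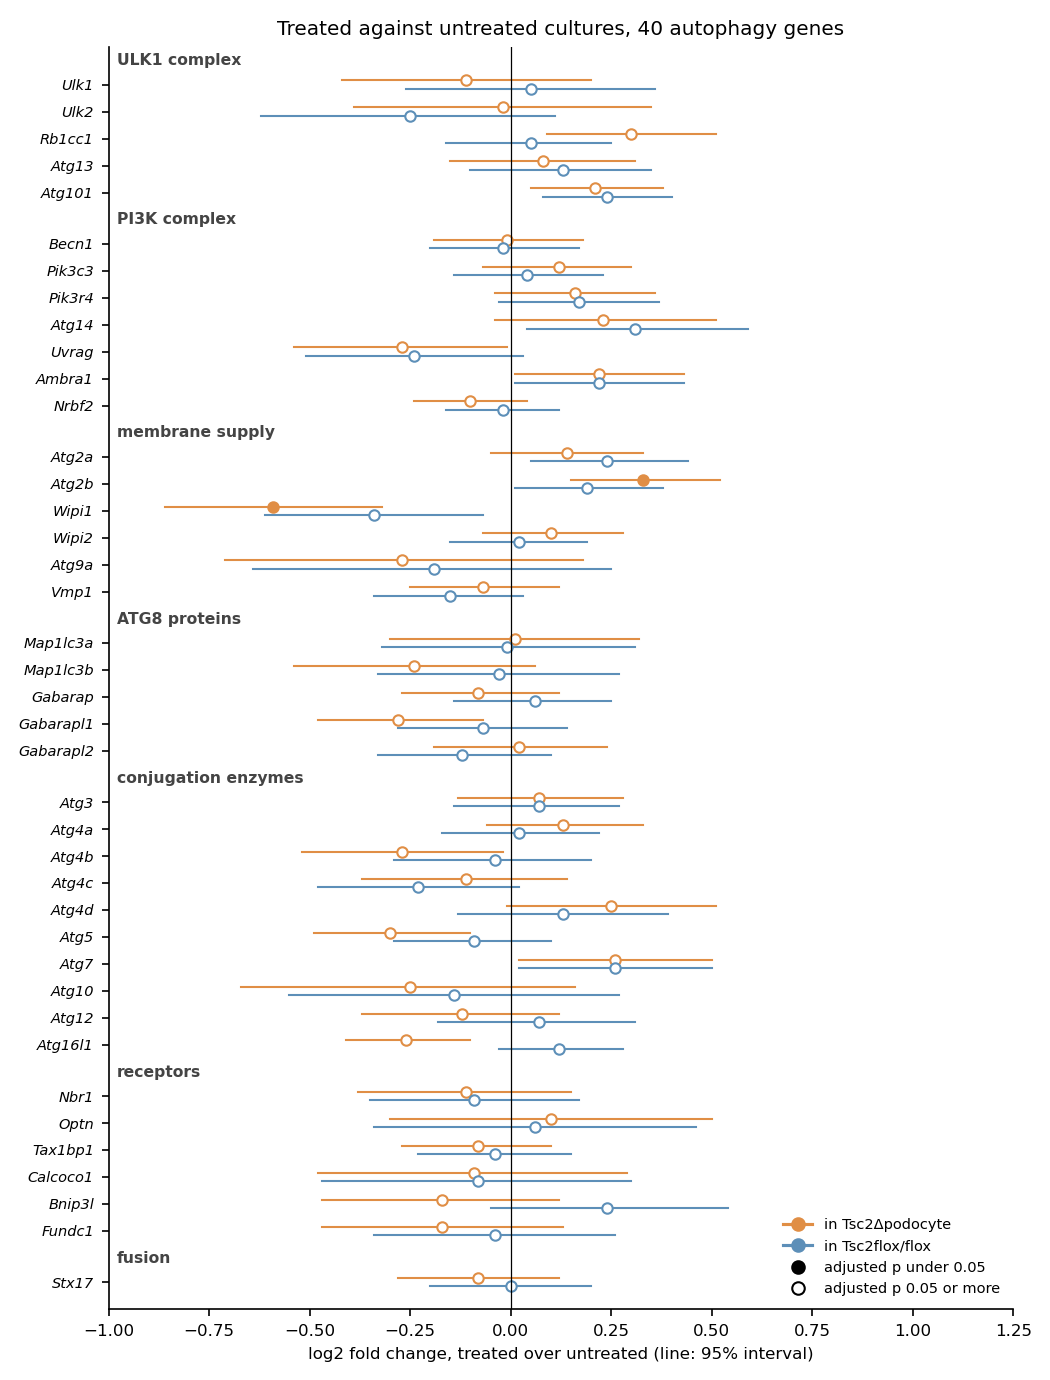
Fitted difference of treated against untreated cultures for the 40 autophagy genes (x axis, log2 fold change), in Tsc2Δpodocyte (orange) and Tsc2flox/flox (blue) cultures, with 95% intervals from limma over 4 arrays a group; filled points have an adjusted p under 0.05. Wipi1 (-0.59) and Atg2b (0.33) in Tsc2Δpodocyte cultures are filled, and slide and age differ along with treatment.

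The 40 genes varied little among replicates and varied together. Their SD within groups had a median of 0.136 on the log2 scale, from 0.0558 (Nrbf2) to 0.31 (Atg9a), against 0.203 over all genes. In the untreated Tsc2Δpodocyte group, replicate 2 was the highest array for 28 of the 40 genes (70%), and for 40.2% of all genes. In the Tsc2Δpodocyte + Rapamycin group replicate 3 was the highest for 28 (70%), against 38.2% of all genes. In the Tsc2flox/flox group replicate 2 was the lowest for 26 (65%), against 25.6%. The mean deviation of the 40 genes from their group means was 0.131 and 0.143 on the first 2 of these arrays and -0.111 on the third. The same 2 high arrays had the highest summed podocyte markers of all 16, 216 and 220, where the other 14 lay between 75.5 and 134. The Tsc2flox/flox replicate 2 array, at 106, did not stand apart in them, and had the lowest macrophage sum, 3.83. The part of this common variation in the results was not tested beyond leaving out each array.

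**Figure D5:**
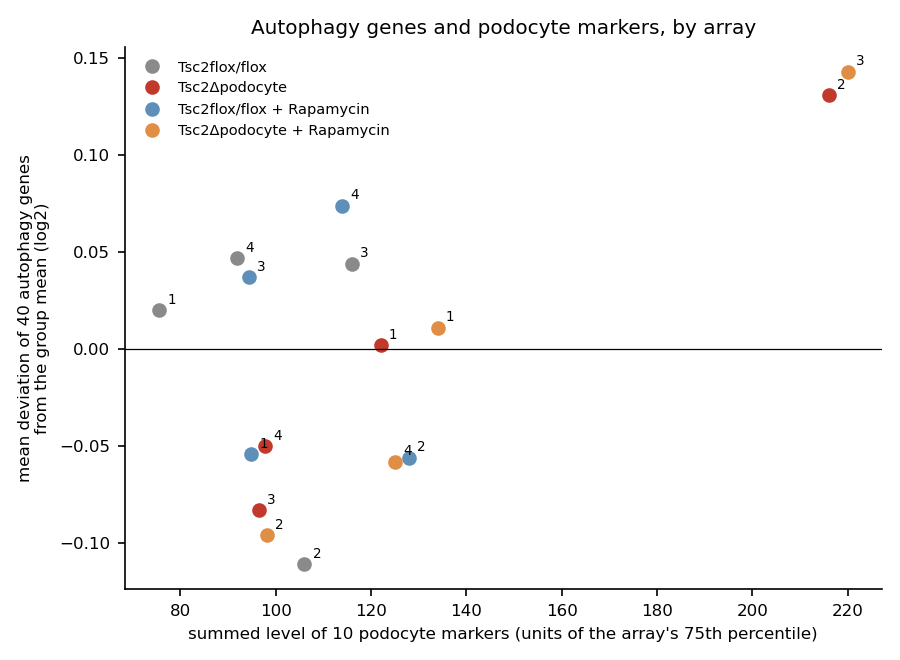
Mean deviation of the 40 autophagy genes from their group mean on each array (y axis, log2) against the summed level of 10 podocyte markers on that array (x axis, units of the array's 75th percentile); colours give the group and digits the replicate. The 2 arrays at 216 and 220 are also the 2 highest in the autophagy genes (0.131 and 0.143).

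Beside the 40, 38 further genes of the pathway were counted, among them other receptors, tethers and fusion genes. Without treatment 10 of these rose and 1 fell (26.3% and 2.63%, against 10.3% and 9.2% of all genes), and with rapamycin 7 rose and 0 fell (18.4% and 0%, against 6.2% and 4.97%). Among those that passed, the largest fitted rises were those of Bnip3, a hypoxia-responsive mitophagy receptor related to Bnip3l, at 2.41 (adjusted p = 0.000479) and 1.90 (adjusted p = 0.00573), and Sqstm1, which encodes the receptor p62, at 1.11 (adjusted p = 0.000447) and 0.72 (adjusted p = 0.0119). The ferritin receptor Ncoa4, the mitochondrial receptor Fkbp8, and Rab7 and Vps41 of fusion with the lysosome were among those that also rose in both. Wdr45, a relative of Wipi1, was the one that fell, at -0.43 (adjusted p = 0.0102). In the interaction 0 of 38 passed in limma and 1 had an unadjusted p under 0.05.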

How the data were processed

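Total RNA of primary podocytes was hybridised to Agilent SurePrint G3 mouse arrays, 4 samples in each of 4 groups taken from the sample titles. The authors deposited 1 scanner file per array, with a background-subtracted intensity per spot from Agilent Feature Extraction 10.7.3.1, per the submitters' processing notes. They also deposited a table of log2 values; its scaling and centring are not stated, and set against the scanner files it appears shifted to each array's 75th percentile and centred per probe (r of at least 0.99958 with the values made here, likewise centred), with array medians of -0.156 to 0.241. The untreated groups filled 1 slide and the treated groups another, and on both slides Tsc2Δpodocyte samples occupied row 1 and the controls row 2: genotype and row cannot be told apart.

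For this report each intensity was divided by its array's 75th percentile and put on the log2 scale, 1344 outlier spots were dropped, and spots of 1 probe were averaged. No spot was saturated. Of 56605 probes, 27579 were tested, those that all 4 arrays of 1 group or more had well above background. Identifiers of 33006 probes matched genes in RefSeq (GRCm38.p6). Each gene stands for its brightest tested probe, and levels were not compared between probes. A model of 4 group means was fitted to all 16 arrays in limma 3.58.1 (R 4.3.3) with Benjamini-Hochberg adjustment over all probes within a comparison. The authors called genes at 1.5-fold and an adjusted p under 0.05. Single genes were also tested with a 2-sided exact permutation test. The fit was tested on simulated data. Changes of 1.25-fold were called for 2% of changed probes in the genotype comparison without treatment, 6% with rapamycin and 0% in the interaction. For changes of 1.5-fold the shares were 42%, 46% and 8%. A gene that did not pass is therefore not shown to be unchanged. Intervals are 95% intervals of the fit. Genes named with a value per array passed in at least 1 comparison, or are Ulk1, Rb1cc1, Atg101 and Map1lc3b, whose products the study names, or have a further probe that passed where the brightest did not. A few others are given with values chosen after these were seen, such as Atg14 and Becn1. The 40 genes, the lists and the tests were chosen with earlier results of these data known.

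Other settings tried were normexp (offset 50, on the median spot signal) and quantile normalization; either a stricter filter on dim probes or none; the deposited table; fits of the compared arrays alone; the methods' t-test; limma with trend and robust prior; a block for replicate number; averaging a gene's probes; a 1.5-fold minimum; and omission of each array. Marker means as covariates and 2 arrays left out together were chosen after seeing the data. Figures were drawn with matplotlib 3.10.9 (Python 3.11.15).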

Additional observations from a re-analysis of the deposited data

Results flagged for a closer look

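In 10 of the 160 sets of 4 values (40 genes in 4 groups), 1 array lay far from the other 3, its gap to the nearest value taking up more of the range than Dixon's critical value allows. Chance flags about 1 in 20 such sets, so 10 is close to what chance gives. In the Tsc2Δpodocyte group, Becn1 on replicate 2 (1.43, nearest 1.31), Gabarapl2 on replicate 1 (4.54, nearest 4.34) and Bnip3l on replicate 2 (4.91, nearest 4.28) were high. In the Tsc2flox/flox group, Atg13 (2.56, nearest 2.95) and Nrbf2 (1.38, nearest 1.48) were low on replicate 2. In the Tsc2Δpodocyte + Rapamycin group, Ulk1 (3.73, nearest 3.48) and Map1lc3b (6.31, nearest 5.87) were high on replicate 3. In the Tsc2flox/flox + Rapamycin group, Rb1cc1 was low on replicate 3 (2.12, nearest 2.39), Gabarapl1 low on replicate 1 (5.52, nearest 5.75) and Atg4b high on replicate 3 (2.05, nearest 1.93). Without Tsc2Δpodocyte replicate 2, the genotype difference of Bnip3l was 0.29 and did not pass (adjusted p = 0.074 in limma), against 0.45 with it.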

How the results depend on the processing

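The number of the 40 genes that passed without treatment, 6, became 1 with no filter on dim probes, 3 with only the arrays compared, 3 in the methods' t-test (2 of them among the 6), 2 with the replicate block, 3 with the endothelial covariate and 1 with the fold threshold. With rapamycin the number, 6, became 3 after normexp (2 of them among the 6), 1 with the fold threshold, and 0 with no filter, with only the arrays compared or in the t-test. In treated against untreated Tsc2Δpodocyte cultures the number, 2, became 7 after normexp (both of the 2 among them) and 0 with no filter, only the arrays compared, the t-test or the endothelial covariate. There it was 1 with the deposited values, the replicate block, the mean of a gene's probes, the macrophage covariate, the fold threshold, or without the 2 untreated arrays of highest endothelial sum. In Tsc2flox/flox cultures 1 passed after normexp, against 0. The cause was not tested. Leaving out 1 array at a time gave 2 to 8 genes without treatment, 0 to 7 with rapamycin, 0 to 2 for treated Tsc2Δpodocyte, and 0 for the interaction and treated Tsc2flox/flox. Other scalings changed the split without treatment from 5 higher and 1 lower to 6 and 3 after normexp, 4 and 1 after quantile normalization, and 8 and 0 with the deposited values; with rapamycin it went from 4 and 2 to 3 and 0, 4 and 4, and 4 and 1. The 14 calls made on the brightest probes of the 40 genes kept their direction in 29 alternatives each; calls on further probes and other genes were not rerun. Ulk1 without treatment, which did not pass, turned to -0.05 after quantile normalization, -0.04 after normexp, -0.16 without Tsc2Δpodocyte replicate 2 and -0.02 without Tsc2flox/flox replicate 3; leaving out 1 array gave -0.16 to 0.11. The labels number the replicates of each group 1 to 4, but same-numbered arrays deviated together in no consistent way (correlations of -0.304 to 0.464), so the numbers were not taken as pairs, and the replicate block left 4 genes with rapamycin. Precision is limited by 4 arrays a group.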
